A study of Mus musculus with 12 samples.

Results

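Lungs of mice labelled PPTA knockout were compared with lungs of wild-type mice, all taken at 8 h after the cecum had been ligated and punctured (cecal ligation and puncture, CLP). The comparison used 6 of the 12 arrays of the series, 3 for each genotype, and every probe set that was not an array control. The other 6 arrays hold lungs of the same genotypes 8 h after sham surgery. All mice were 8 to 10 weeks old, and no treatment other than the surgery is named. The labels give Balb/c as the strain of the wild type and name none for the knockout, which means that genotype and strain cannot be told apart in any difference below. Total RNA of whole lung was hybridised to Affymetrix 430 2.0 arrays as biotin-labelled cRNA, and the deposited values are linear signals scaled to a common target on each array. The labels name triplicates without saying that each is another animal, and the p-values therefore measure only how far these samples spread, which may be technical.

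PPTA is an older name of Tac1, which encodes preprotachykinin A, the precursor of the neuropeptides substance P and neurokinin A. Sensory nerve endings in the airways and around vessels release substance P, which acts through the receptor Tacr1, widens vessels, makes venules leak and draws leukocytes into tissue. In CLP the punctured cecum leaks gut bacteria into the abdomen, and the lung, which lies far from the infection, fills with neutrophils and switches on acute-phase proteins, chemokines and adhesion molecules. The comparison asks how the lung under sepsis differs between mice with and without the gene by their labels.

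Tac1 itself went against the label. Its signal was 16.1, 3.95 and 12.4 on arrays 1 to 3 of wild-type CLP and 442, 337 and 462 on arrays 1 to 3 of knockout-labelled CLP. The groups did not overlap, and the lowest knockout-labelled array stood far above the highest wild-type array. The difference was 4.97 ± 0.34 on the log2(signal + 3.47) scale (knockout-labelled minus wild type, SE, adjusted p = 8.12e-05), the scale of all differences below, which understates the change of weak genes. Sham lungs had the same arrangement, with 5.25, 8.34 and 2.80 in the wild type against 380, 441 and 530 (5.70, adjusted p = 4.55e-05). The sources used here do not state which part of Tac1 was disrupted or whether the probes lie in it, and this signal does not check which animals carry the disruption. The arrays are therefore called knockout-labelled throughout, and every direction is drawn between the labels.

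**Figure D1:**
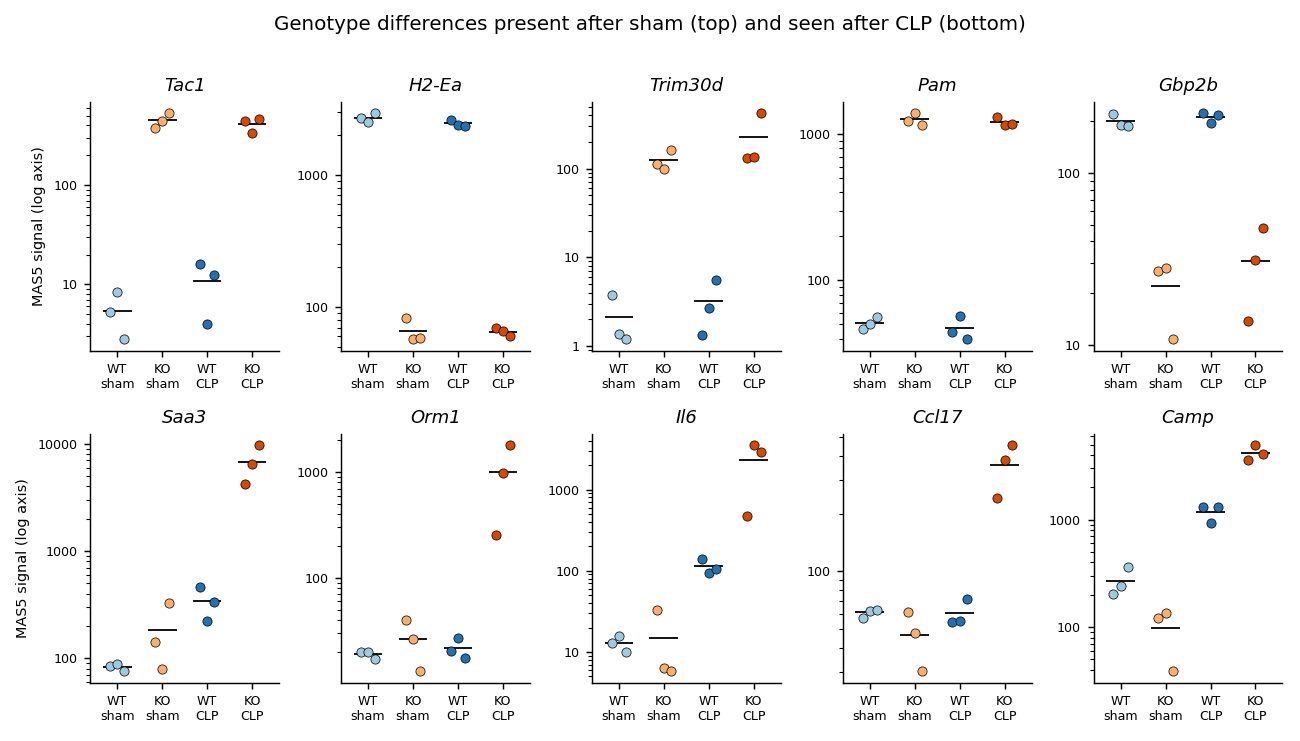
MAS5 signal on a log axis for 10 genes on all 12 arrays, as points for the 3 arrays of each group (WT, wild type, KO, knockout-labelled) with a line at the group mean. The 5 genes of the top row (Tac1, H2-Ea, Trim30d, Pam and Gbp2b) were apart between genotypes after both surgeries, while Saa3, Orm1, Il6, Ccl17 and Camp in the bottom row had knockout-labelled CLP arrays above every other array.

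Of 45037 probe sets, 23187 exceeded the median of their array on 3 or more of the 6 arrays and were tested. A probe set weak in 1 genotype could pass through the arrays of the other alone. The filter thus favours large differences among those tested, also in the list counts below. At an adjusted p under 0.05, 6764 differed, which is 29.2% of those tested. Of these, 2986 (12.9%) were higher and 3778 (16.3%) lower in knockout-labelled lungs. A change of at least 2-fold was reached by 990 of the higher (4.27% of those tested) and 1102 of the lower probe sets (4.75%), and 8-fold by 105 and 53. Counted as 11474 genes, each by its probe set of highest mean signal, 1517 (13.2%) were higher and 1996 (17.4%) lower, together 30.6%. These shares are the background of every list count below, and no list was tested against them. Complete separation of the 6 arrays was frequent, in 48.1% of probe sets. The count depended on each wild-type array: it was 3796, 3171 and 3696 without wild-type CLP array 1, 2 or 3. Counts of list members in the same runs are to be read against these smaller totals.

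Arrays of wild-type CLP correlated at 0.986 to 0.987 with each other, arrays of knockout-labelled CLP at 0.951 to 0.973, and arrays of different genotype at 0.872 to 0.933. The first principal component of the 6 arrays held 72.7% of the variance and separated the genotypes. The 3 knockout-labelled lungs also differed in how far they stood from the wild type. Array 1 was the lowest of the 3 in 67.5% of the probe sets that were at least 2-fold higher, and array 3 the highest in 67.7%. The median log2 distance of those probe sets from the wild-type mean was 1.28 on array 1, 1.57 on array 2 and 1.85 on array 3. Among the probe sets at least 2-fold lower it was -1.11, -1.33 and -1.60. The ratio of 3-prime to 5-prime actin signal, a measure of RNA integrity, was 1.38 ± 0.0889 (SD, n = 3) against 1.52 ± 0.0924 in the wild type (two-sided exact permutation p = 0.1, the smallest that 3 arrays against 3 can give). The same ratio for Gapdh was also lower in knockout-labelled CLP, at 0.756 ± 0.0829 against 0.878 ± 0.0307 (SD, same permutation test, p = 0.1). The part of RNA quality in the differences was not tested.

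The 15 largest called rises and falls with separated groups included many genes that differed as much after sham surgery. H2-Ea, the MHC class II alpha chain of the E molecule, had signals of 2611, 2391 and 2342 in wild-type CLP and 69.3, 65.5 and 60.0 in knockout-labelled CLP. The difference was -5.17 ± 0.11 (adjusted p = 1.32e-07) after CLP and -5.30 after sham, so that no array overlapped in either surgery. Mouse strains of the H2-b haplotype make no H2-Ea transcript, whereas Balb/c carries H2-d and makes it. H2-Eb1, its beta chain partner, was lower as well (-3.64 ± 0.14 after CLP, -3.54 after sham).

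Trim30d, a member of a TRIM gene cluster on chromosome 7, gave 1.33, 2.71 and 5.54 in wild-type CLP against 131, 136 and 421 (4.95 ± 0.46, adjusted p = 3.31e-04), and Trim34a (4.41) and Trim5 (4.77) were also higher. Trim68, another TRIM gene of chromosome 7, was lower, at 94.0, 95.4 and 88.6 against 11.5, 4.64 and 6.45 (-3.17 ± 0.27, and -2.31 after sham). Gbp2b, an interferon-induced GTPase, went the other way, with 223, 197 and 218 against 13.7, 31.1 and 47.7 (-2.79 ± 0.35, adjusted p = 0.00124). Pam, the enzyme that amidates neuropeptides such as substance P at their end, gave 44.5, 57.2 and 39.5 against 1305, 1152 and 1179 (4.60 ± 0.15, adjusted p = 1.86e-06). In sham lungs Pam differed by 4.54, Trim30d by 4.52 and Gbp2b by -3.09, and none of these genes was called in the test of the difference between surgeries (adjusted p = 0.88 for Pam, 0.71 for Trim30d and 0.763 for Gbp2b). Of 12 tested genes listed as known to differ between inbred strains, 7 were higher and 3 lower, with a median of 0.69 against -0.06 over all genes tested. Over all genes tested, 13.2% were higher and 17.4% lower. The list was drawn up with earlier results of these data known, so its count is a description only.

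Other large differences of this kind were Baiap2l1, an actin-bundling adaptor, which had 2688, 2576 and 2488 in wild-type CLP against 245, 217 and 244 (-3.44 ± 0.09, adjusted p = 5.94e-07, and -3.03 after sham). Clca1, a secreted protein of mucous cells, was at 8.79, 1.06 and 0.648 against 195, 114 and 57.8 (4.21 ± 0.54, adjusted p = 0.00135, and 4.27 after sham). Reg3g, an antibacterial lectin of epithelium, had 668, 306 and 386 against 1644, 1707 and 2644 (2.18 ± 0.29, adjusted p = 0.00152, and 2.62 after sham). BC018473, an unnamed transcript, gave the largest rise of the genes tested (7.90 ± 0.51, adjusted p = 6.37e-05), from 4.45, 0.695 and 2.73 to 564, 1946 and 2490. In knockout-labelled sham lungs BC018473 spread from 7.63 to 479.

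Among the other large rises, Cd300lg, a receptor of capillary endothelium, had 1.33, 1.24 and 1.78 in wild-type CLP against 64.3, 66.8 and 73.2 (3.86). Gm4951, a predicted interferon-induced GTPase, had 11.2, 13.9 and 8.56 against 93.3, 250.5 and 563 (4.05). Neither was tested after sham, but the sham arrays of both were apart. Cd300lg had 2.10, 1.94 and 1.63 against 11.5, 17.4 and 36.7, and Gm4951 12.6, 23.3 and 20.5 against 96.1, 36.0 and 76.9. Among the other large falls, Tnn, a tenascin of the extracellular matrix, had 383, 421 and 404 against 48.0, 43.5 and 7.34 (-3.77, and -2.66 after sham). Bcan, a proteoglycan best known from brain, differed by -3.03 (-4.05 after sham), Otulinl by -3.62 (-4.47), Taf7, a subunit of the general transcription factor TFIID, by -3.04 (-2.65), Gpbp1l1 by -3.08 (-2.39) and Gm19439 by -3.38 (-2.22), and each was called after both surgeries. Akr1e1, an aldo-keto reductase, was called after CLP (-3.35) and not after sham (-1.95, adjusted p = 0.0948). In the test of the difference between surgeries Akr1e1 was not called (adjusted p = 0.284). Kif26a, a kinesin family member, had 186, 95.7 and 138 against 54.2, 6.13 and 2.55 (-3.21 ± 0.73, adjusted p = 0.0141). The Kif26a call was lost without wild-type CLP array 1 or 3 or knockout-labelled CLP array 2 (adjusted p up to 0.0554).

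**Figure D2:**
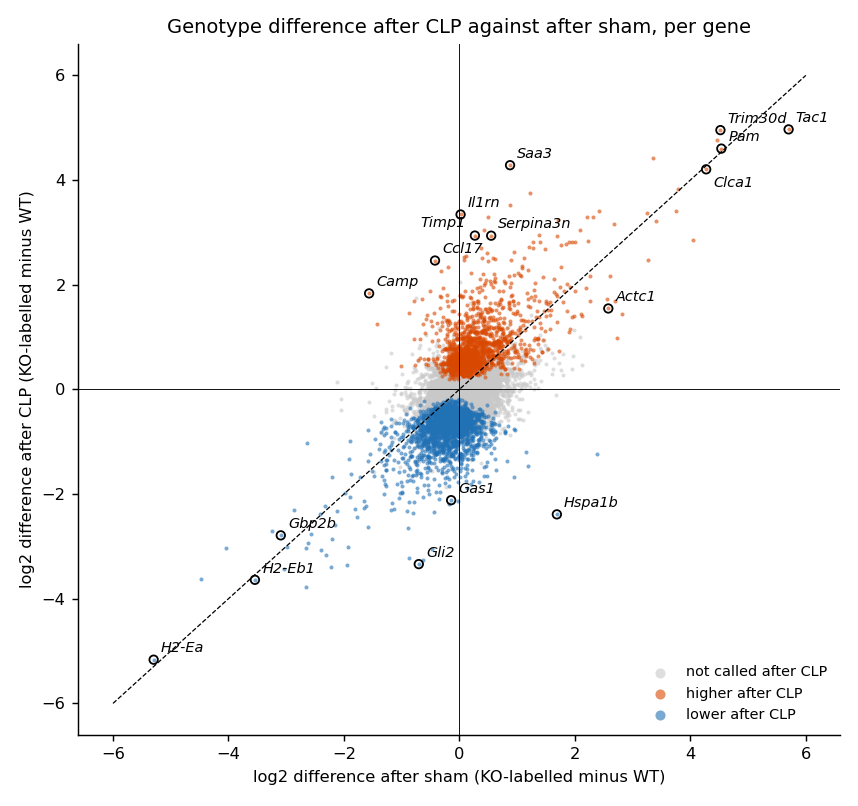
Log2 difference between genotypes (knockout-labelled minus wild type) after CLP on the vertical axis against that after sham on the horizontal axis, 1 point per gene tested after both surgeries, coloured by the call after CLP, with equality dashed. Tac1, Pam, Trim30d, H2-Ea and H2-Eb1 lie along the dashed line, Il1rn (0.02), Timp1 (0.27) and Ccl17 (-0.42) lie nearer 0 after sham than after CLP, Saa3 lies at 0.88 after sham and 4.28 after CLP, and Hspa1b lies at 1.69 after sham and -2.39 after CLP.

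Over the 22186 probe sets tested after both surgeries, which share no array, 6421 were called after CLP and 1358 after sham (of all probe sets tested after sham, 6.2% were called, 3.37% higher and 2.83% lower). Called after both were 898, of which 880 went the same way and 18 opposite ways. These 880 were 13.7% of the calls after CLP and 64.8% of the calls after sham. Among probe sets called after CLP, the median size of the difference was 0.746 after CLP and 0.272 after sham, and 76.9% had the same sign. In the test of the difference between surgeries, which used all 12 arrays, 995 of 24574 probe sets were called (4.05%), 416 above 0 (1.69%) and 579 below (2.36%). This count was unsteady: without 1 array it ran from 107 (without wild-type CLP array 2) to 3284 (without knockout-labelled sham array 3), and it was 2613 without knockout-labelled CLP array 1. It was 237 and 257 without wild-type CLP array 1 or 3, 205, 181 and 174 without wild-type sham array 1, 2 or 3, 448 and 306 without knockout-labelled sham array 1 or 2, and 246 without knockout-labelled CLP array 2. Knockout-labelled sham array 3 stood apart from the other sham arrays of its genotype, with 595 probe sets at least 2-fold above both of them and 652 below. It leaned toward the differences seen after CLP. Of the probe sets at least 2-fold higher after CLP, it was the highest knockout-labelled sham array in 62.9%. Of those at least 2-fold lower, it was the lowest in 60.6%.

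Acute-phase proteins rose almost throughout. Of 16 tested of 24 on the array, 15 were higher in knockout-labelled lungs and none lower, with a median of 1.72 (all genes, -0.06). Fgg, Orm1, Saa1 and Hpx were under the array median on every wild-type CLP array and passed the filter only through knockout-labelled arrays. The count and the median are therefore shifted toward rises. Between 13 and 16 were higher when each array was left out in turn. These proteins are secreted by liver, epithelium and macrophages under interleukin 6, interleukin 1 and endotoxin.

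Saa3, the serum amyloid A form made outside the liver, had signals of 466, 223 and 331 in wild-type CLP and 4177, 6503 and 9678 in knockout-labelled CLP. The lowest knockout-labelled array was well above the highest wild-type array, and the difference was 4.28 ± 0.33 (adjusted p = 1.39e-04). In sham lungs Saa3 was 84.4, 87.8 and 75.2 against 141, 78.5 and 327, without a call (0.88). The difference between surgeries was 3.41 (adjusted p = 0.0163), and its call was lost only without wild-type CLP array 2 (adjusted p = 0.0558).

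Orm1, the acid glycoprotein orosomucoid, gave 20.4, 27.0 and 17.6 against 257, 990 and 1793 (4.96 ± 0.59, adjusted p = 0.00102). Its wild-type CLP arrays were at the level of the wild-type sham arrays (19.8, 19.9 and 17.2), and the difference between surgeries was 4.65 (adjusted p = 0.0124), called without any of the 12 arrays. Fgg, the fibrinogen gamma chain, was near the floor in the wild type (7.81, 1.66 and 2.75) and at 132, 244 and 345 in knockout-labelled CLP. Its difference of 5.00 ± 0.41 (adjusted p = 1.88e-04) ranged from 3.51 to 5.62 across the alternatives, since the size of a change from so low a signal depends on the pseudocount. Serpina3n, a serine protease inhibitor, gave 212, 154 and 177 against 1109, 1341 and 1832 (2.94 ± 0.19, adjusted p = 6.76e-05), again with no overlap.

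Hpx, which binds haem, had 19.6, 32.7 and 25.1 against 63.7, 174 and 186 (2.19 ± 0.39, adjusted p = 0.00515), and Saa1 15.2, 9.91 and 16.6 against 64.6, 196 and 410 (3.38 ± 0.56, adjusted p = 0.00397). Lcn2, which withholds bacterial iron carriers, had 2543, 1627 and 2300 against 6359, 7089 and 8350 (1.77 ± 0.17, adjusted p = 3.45e-04). The metallothionein Mt2 rose by 1.14. Haptoglobin, Hp, was the member without a call, at 4430, 4448 and 5095 against 4624, 5944 and 5937 (0.23, adjusted p = 0.138). Hepatocyte markers were weak in both groups: 4 of 16 on the array passed the filter, their summed signal was 674 to 753 in wild-type CLP and 1081 to 1243 in knockout-labelled CLP, and albumin (Alb) was at 19.2 to 30.3 against 30.4 to 37.1. The part of liver RNA in these values was not tested.

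Promoter sequences are shown for 4 of the acute-phase genes that rose and for Il6, because each holds a match to the letters that C/EBP, a family of acute-phase regulators, is known to bind. They are the 250 bases before the start site, 5′ to 3′ in the direction of the gene, from RefSeq on GRCm38.p6. On the minus strand lie Saa3 at chr7:46715677-46715926, Saa1 at chr7:46742981-46743230, Lcn2 at chr2:32387740-32387989 and Hpx at chr7:105600117-105600366, and on the plus strand Il6 at chr5:30012864-30013113. Capitals mark a match to TTGCNNAA (C/EBP), searched on both strands.
Saa3: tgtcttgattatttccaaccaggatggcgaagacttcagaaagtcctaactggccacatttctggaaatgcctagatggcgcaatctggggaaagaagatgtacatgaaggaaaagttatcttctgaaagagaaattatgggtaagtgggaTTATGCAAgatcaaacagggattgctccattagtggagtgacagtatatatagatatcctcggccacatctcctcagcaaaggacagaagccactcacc
Saa1: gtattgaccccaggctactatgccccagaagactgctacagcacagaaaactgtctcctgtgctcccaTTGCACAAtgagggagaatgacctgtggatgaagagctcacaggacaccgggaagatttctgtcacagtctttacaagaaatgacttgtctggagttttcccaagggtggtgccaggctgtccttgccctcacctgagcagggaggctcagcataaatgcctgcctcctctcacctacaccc
Lcn2: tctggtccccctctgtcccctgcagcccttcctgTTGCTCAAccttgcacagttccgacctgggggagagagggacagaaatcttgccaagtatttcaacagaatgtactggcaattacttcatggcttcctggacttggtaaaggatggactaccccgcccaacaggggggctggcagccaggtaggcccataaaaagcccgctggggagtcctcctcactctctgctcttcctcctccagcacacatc
Hpx: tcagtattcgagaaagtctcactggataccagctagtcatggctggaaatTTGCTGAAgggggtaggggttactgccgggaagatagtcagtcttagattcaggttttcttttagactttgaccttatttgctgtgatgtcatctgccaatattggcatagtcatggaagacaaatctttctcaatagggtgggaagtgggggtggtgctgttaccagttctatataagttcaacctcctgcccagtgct
Il6: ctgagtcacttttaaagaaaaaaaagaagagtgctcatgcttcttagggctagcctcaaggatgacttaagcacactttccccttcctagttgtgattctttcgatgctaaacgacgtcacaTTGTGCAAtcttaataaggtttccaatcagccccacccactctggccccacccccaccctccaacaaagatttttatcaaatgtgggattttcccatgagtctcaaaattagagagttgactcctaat

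The letters begin 99 bases before the start in Saa3, 182 in Saa1, 216 in Lcn2, 200 in Hpx and 128 in Il6. Of the 15 acute-phase genes that rose, 13 had an entry among the promoters, and 8 of these 13 held the letters (Cp, Fga, Hpx, Lcn2, Mt2, Ptx3, Saa1 and Saa3). Here a gene counted if any of its windows held them. Of all 32851 promoter windows of this length, counted singly, 9.56% held them, so the shares of genes and of windows differ in unit. A match is a description of the sequence and does not show binding.

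Cytokines divided. Il6, the main inducer of the hepatic acute phase, was at 141, 93.1 and 105 in wild-type CLP and 466, 3501 and 2869 in knockout-labelled CLP (3.87 ± 0.66, adjusted p = 0.00428). Array 1 of the knockout-labelled lungs held a much lower level than arrays 2 and 3 but still lay above all wild-type arrays. Il33, an alarmin stored in epithelial and endothelial nuclei, rose from 520, 444 and 370 to 962, 1318 and 1972 (1.62 ± 0.24, adjusted p = 0.00261). Tnf had no call, and its arrays overlapped: 35.6, 2.78 and 2.13 against 3.80, 194 and 341 (2.83 ± 1.37, adjusted p = 0.154). Il1b was also not called, at 3330, 3199 and 3764 against 2476, 4477 and 5418 (0.19, adjusted p = 0.586). Of 11 tested proinflammatory cytokines, 4 were higher and none lower, and 8 were higher without knockout-labelled CLP array 1. Without wild-type CLP array 2 or 3 or knockout-labelled CLP array 2 or 3, 3 were higher.

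Antagonists and brakes of the same pathways were among the rises. Il1rn, the interleukin 1 receptor antagonist, was at 297, 231 and 253 against 1060, 3466 and 5109 (3.34 ± 0.48, adjusted p = 0.00222), and after sham it was not called (0.02, adjusted p = 0.982). Irak3, which holds back Toll-like receptor signalling, gave 92.8, 47.7 and 72.0 against 207, 545 and 877 (2.70 ± 0.47, adjusted p = 0.0048). Tnip1 and Bcl3, inhibitors within NF-kB signalling, rose by 1.79 and 1.62. Of 20 tested feedback genes, 6 were higher and 1 lower, where 13.2% of all genes tested were higher and 17.4% lower. Without any 1 of the wild-type CLP arrays or knockout-labelled CLP array 2, 4 were higher. Without knockout-labelled CLP array 1, 10 were higher.

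Most CC chemokines and receptors, which guide monocytes and T cells, were higher in knockout-labelled CLP. Of 16 tested CC chemokines and receptors, 11 were higher and none lower, with a median of 1.92, and 10 to 13 were higher when each array was left out. Over all genes tested, 13.2% were higher and 17.4% lower. Members such as Ccl7 lay under the array median on every wild-type CLP array and passed the filter only through knockout-labelled arrays. The count and the median are therefore shifted toward rises. Ccl17, a ligand of Ccr4 on T cells, was at 54.3, 55.4 and 71.6 in wild-type CLP, the level of its sham lungs (57.6, 62.6 and 63.4), and at 241, 381 and 452 in knockout-labelled CLP. Its difference was 2.46 ± 0.23 (adjusted p = 3.64e-04), and the difference between surgeries 2.88 (adjusted p = 0.00456), called without any of the 12 arrays. Ccl2, the chief monocyte chemokine, had 136, 108 and 96.1 against 402, 1136 and 1948 (3.06 ± 0.48, adjusted p = 0.0031). Its relative Ccl7 gave 18.7, 15.7 and 21.1 against 81.2, 256 and 598 (3.43 ± 0.59, adjusted p = 0.00446). Their receptor Ccr2 had 74.8, 55.2 and 46.3 against 423, 271 and 633 (2.78 ± 0.30, adjusted p = 6.35e-04), although 1 of its 3 other probe sets was not called.

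Of 6 tested neutrophil chemokines, 2 were higher, 1 was lower and 3 were not called, with a median of 0.63. Without wild-type CLP array 1, 2 or 3 or knockout-labelled CLP array 2, 1 was higher and 0 lower. Ppbp, platelet basic protein, which is cut into a neutrophil chemokine, had 487, 495 and 516 in wild-type CLP against 1164, 2244 and 1993 (1.79 ± 0.22, adjusted p = 0.00108), and it was higher after sham too (1.69, adjusted p = 0.00437). Cxcl1, a ligand of Cxcr2, had 947, 1156 and 1237 against 1442, 4444 and 4138 (1.43 ± 0.38, adjusted p = 0.0243). Cxcl15, a chemokine of lung epithelium, had 9400, 9344 and 9107 against 8508, 7173 and 7267 (-0.28 ± 0.07, adjusted p = 0.0201). The groups did not overlap for any of these 3 genes, but the calls of Cxcl1 and Cxcl15 were lost without any one of the 4 arrays just named (adjusted p up to 0.0814 and 0.0776).

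Cxcl2, which draws neutrophils through Cxcr2, was at 7381, 7709 and 7230 in wild-type CLP and 3517, 6947 and 6948 in knockout-labelled CLP, without a call (-0.43 ± 0.23, adjusted p = 0.199). Its sham level was between 25.7 and 124 on all 6 arrays. Cxcl3, which acts on the same receptor, overlapped as well, at 783, 600 and 858 against 726, 1402 and 1538 (0.65, adjusted p = 0.103). Ccl3 and Ccl4, made by activated macrophages and neutrophils, were below the wild-type median on knockout-labelled array 1 and far above every wild-type array on arrays 2 and 3 (Ccl3, 337, 3286 and 4241 against 513, 244 and 529), and neither was called (adjusted p = 0.102 and 0.154).

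Granule genes of granulocyte precursors were higher in knockout-labelled CLP while markers of mature neutrophils were not. Camp, the cathelicidin of secondary granules, gave 1308, 926 and 1321 in wild-type CLP and 3625, 4911 and 4102 in knockout-labelled CLP (1.83 ± 0.16, adjusted p = 2.47e-04). Ngp, another secondary granule protein, had 2497, 2051 and 2717 against 6657, 8046 and 8700 (1.69 ± 0.13, adjusted p = 1.25e-04), and lactoferrin, Ltf, rose by 1.81. After sham both Camp and Ngp were lower in the knockout-labelled lungs without a call (-1.56 and -0.79), and the differences between surgeries were 3.40 and 2.48 (adjusted p = 0.0103 and 0.00209), called without any of the 12 arrays. Of 6 tested precursor markers, 5 were higher, in every leave-out, and of these Lcn2, Chil3 and Ltf also stand in other lists. In whole lung, more cells of a type and more RNA per cell cannot be told apart.

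The primary granule genes Mpo, Elane, Prtn3 and Ctsg, which mark the earliest precursors, were too weak on most arrays to be tested. Mpo had 10.6, 20.7 and 20.9 in wild-type CLP and 24.2, 62.7 and 418 in knockout-labelled CLP, and Elane was at most 3.99 in wild-type CLP and 122 on array 3 of knockout-labelled CLP, so that array 3 held the highest levels. S100a8 and S100a9, the most abundant proteins of mature neutrophils, had signals of 14720 to 15080 against 12540 to 14820 and 13900 to 15250 against 12440 to 14410, and neither was called (-0.10, adjusted p = 0.248, and -0.09, adjusted p = 0.335). Of 15 mature neutrophil markers tested, 1 was higher and 1 lower. Without knockout-labelled CLP array 1, 5 were higher, and the lower one (Padi4) lost its call without any 1 of the wild-type arrays. The higher one, Slpi, inhibits neutrophil elastase and is also made by airway epithelium (515, 487 and 577 against 1121, 1592 and 2536, 1.65 ± 0.25, adjusted p = 0.00285). The summed signal of mature neutrophil markers was 36575 to 40446 in wild-type CLP and 36966 to 44834 in knockout-labelled CLP. That of precursor markers was 6186 to 8209 and 24826 to 31145. S100a8 and S100a9 make up most of the mature sum, which therefore says little about its other members. The precursor sum includes Chil3 and Lcn2, which also stand in the macrophage and acute-phase lists.

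**Figure D3:**
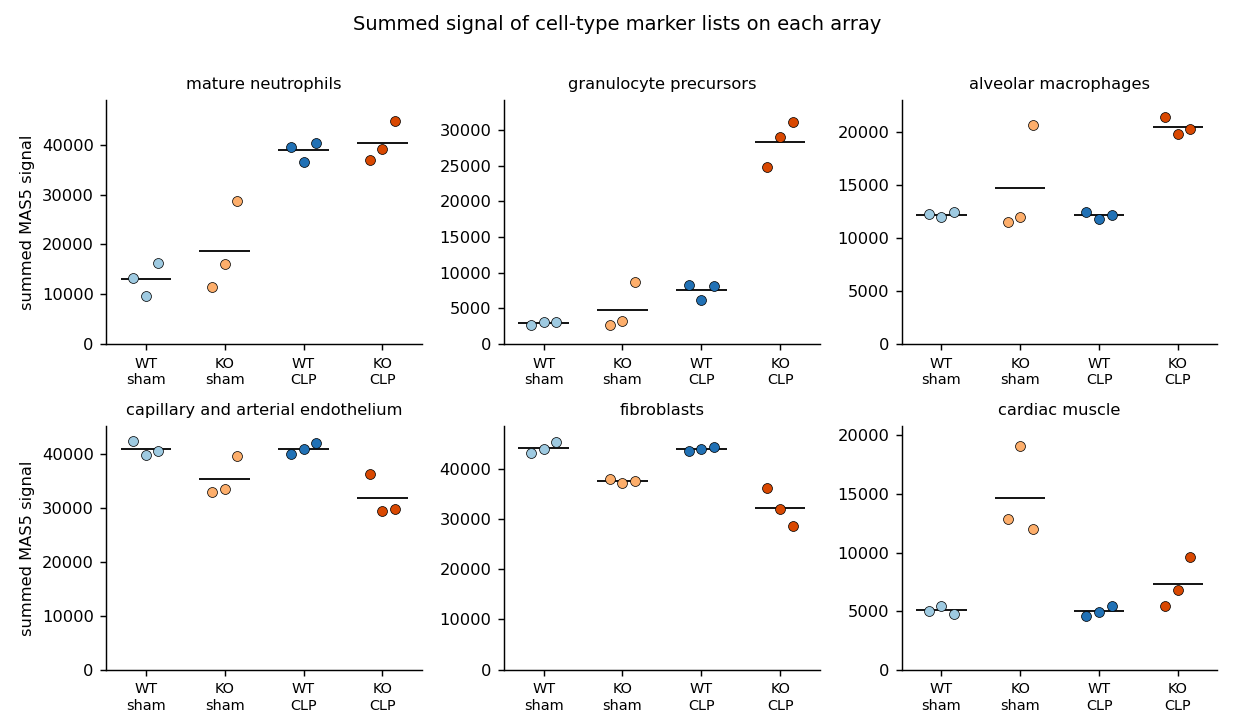
Summed MAS5 signal (axis from 0) of 6 cell-type marker lists on each of the 12 arrays, with a line at each group mean. The sums of mature neutrophil markers overlap between the genotypes after CLP, those of granulocyte precursor and alveolar macrophage markers lie higher and those of endothelium and fibroblasts lower on all 3 knockout-labelled CLP arrays, and 1 knockout-labelled sham array (array 3) has macrophage markers at the CLP level. Chil3 alone makes up most of the rise of the macrophage sum.

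Macrophage genes formed another rise. Msr1, a scavenger receptor that takes up bacteria and modified lipid, was at 37.5, 29.3 and 34.0 in wild-type CLP and 309, 480 and 925 in knockout-labelled CLP (3.81 ± 0.34, adjusted p = 2.86e-04). In sham lungs of both genotypes it lay between 22.1 and 49.96, and the difference between surgeries was 3.58 (adjusted p = 0.00617), called without any of the 12 arrays. Marco, a related receptor, gave 9.36, 1.59 and 5.04 against 142, 105 and 151 (4.04 ± 0.35, adjusted p = 2.53e-04), but here the sham lungs were apart too, with at most 7.26 in the wild type against 49.2, 24.9 and 198. Marco passed the filter only through knockout-labelled CLP arrays. Chil3, a lectin of alternatively activated macrophages and of neutrophil precursors, had 1017, 905 and 916 against 6027, 5827 and 6276 (2.67 ± 0.08, adjusted p = 7.02e-07). Knockout-labelled sham array 3 held 6048 for Chil3, the CLP level, against 1070 and 1377 on arrays 1 and 2.

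Of 14 tested alveolar macrophage markers, 10 were higher and 1 lower. The lower one, Car4, lost its call without any 1 of the wild-type CLP arrays or knockout-labelled CLP array 2. Their summed signal was 11771 to 12441 in wild-type CLP and 19750 to 21366 in knockout-labelled CLP, and among knockout-labelled sham lungs it was 20670 on array 3 and at least 11498 on the others. Chil3 is part of this sum as well as of the precursor sum. By its signals given above, Chil3 alone makes up most of the rise of the macrophage sum, also on knockout-labelled sham array 3. The sum therefore says less about the other members. Mrc1, the mannose receptor, had 499, 486 and 446 against 1024, 984 and 1206 (1.16 ± 0.11, adjusted p = 3.53e-04), and Itgax, the integrin CD11c, rose by 0.91. Cd68, a lysosomal protein of all macrophages, gave 167, 120 and 156 against 453, 466 and 448 (1.62 ± 0.14, adjusted p = 2.65e-04). Among 24 genes that sense endotoxin and microbes, 12 were higher and 3 lower (1 lower without any 1 of the wild-type CLP arrays). The formyl peptide receptor Fpr2 gave 1517, 1087 and 1502 against 3422, 4924 and 5754 (1.76 ± 0.20, adjusted p = 7.81e-04), and Tlr1 and Myd88 rose by 2.08 and 1.39. The inflammasome sensor Nlrp3 went down, at 139, 136 and 144 against 38.1, 58.0 and 87.5 (-1.22 ± 0.26, adjusted p = 0.0109).

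Interferon-induced genes were higher in knockout-labelled lungs, in part already after sham. Of 31 tested type I interferon-stimulated genes, 19 were higher and none lower (median 1.42). The number higher was 11 without wild-type CLP array 2 and 12 without array 3. Oasl2, an antiviral protein, had 59.6, 59.0 and 32.7 in wild-type CLP and 216, 466 and 1313 in knockout-labelled CLP (3.30 ± 0.56, adjusted p = 0.00436), after a difference of 2.21 in sham lungs (adjusted p = 0.00396). Mx1, which traps influenza nucleocapsids, gave 15.1, 11.2 and 11.1 against 45.4, 66.6 and 132 (2.29 ± 0.36, adjusted p = 0.00334). It passed the filter only through knockout-labelled arrays. Irf9, the DNA-binding part of the interferon-stimulated complex, had 197, 172 and 168 against 396, 533 and 713 (1.56 ± 0.20, adjusted p = 0.00145).

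Of 19 tested genes induced by interferon gamma, 12 were higher and 1, Gbp2b, lower (7 higher without wild-type CLP array 2, 6 without array 3). Irgm2, a GTPase that attacks vacuoles of intracellular microbes, was at 132, 85.4 and 122 against 526, 1236 and 1907 (3.23 ± 0.41, adjusted p = 0.00131). Its sham difference was 1.70 (adjusted p = 0.0204). Gbp2 had 349, 312 and 313 against 1096, 1553 and 2713 (5.09-fold, adjusted p = 9.86e-04). In knockout-labelled sham lungs Gbp2 spread from 626 to 1938, above all wild-type sham arrays (292 to 313).

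Genes of matrix turnover, clotting and adhesion included large rises. Timp1, an inhibitor of matrix metalloproteases, was at 103, 85.4 and 102 in wild-type CLP and 660, 620 and 1083 in knockout-labelled CLP (2.94 ± 0.21, adjusted p = 1.02e-04). All 6 sham arrays lay between 78.7 and 115, and the difference between surgeries was 2.67 (adjusted p = 0.0017), called without any of the 12 arrays. The protease Mmp9 was not called, at 560, 524 and 706 against 286, 528 and 368 (-0.63, adjusted p = 0.0603). F10, coagulation factor X, had 31.8, 28.6 and 32.7 against 135, 384 and 628 (3.23 ± 0.47, adjusted p = 0.0022). Selp, the selectin of platelets and activated endothelium, had 63.5, 56.6 and 51.7 against 177, 1131 and 1003 (3.29 ± 0.61, adjusted p = 0.00602).

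Genes that handle metals and oxidants were higher in part. Slc39a14, the zinc and iron importer, gave 95.7, 78.8 and 112 against 350, 513 and 854 (2.46 ± 0.29, adjusted p = 0.00102), although its other probe set was not called. Slc40a1, the only known iron exporter of cells, went down, from 208, 241 and 224 to 65.7, 41.3 and 61.8 (-1.95 ± 0.19, adjusted p = 3.84e-04). Sod2, the mitochondrial superoxide dismutase, had 1171, 982 and 1183 against 2431, 4490 and 5223 (1.79 ± 0.25, adjusted p = 0.0019). All sham arrays of Sod2 lay between 847 and 964, and the difference between surgeries was 1.73 (adjusted p = 0.0142), lost only without wild-type CLP array 2. Of 13 tested metal genes 8 were higher and 2 lower (5 higher without wild-type CLP array 1 or knockout-labelled CLP array 2, and 1 lower without any 1 of the arrays but knockout-labelled CLP array 3), and of 23 antioxidant genes 11 were higher and 2 lower.

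**Figure D4:**
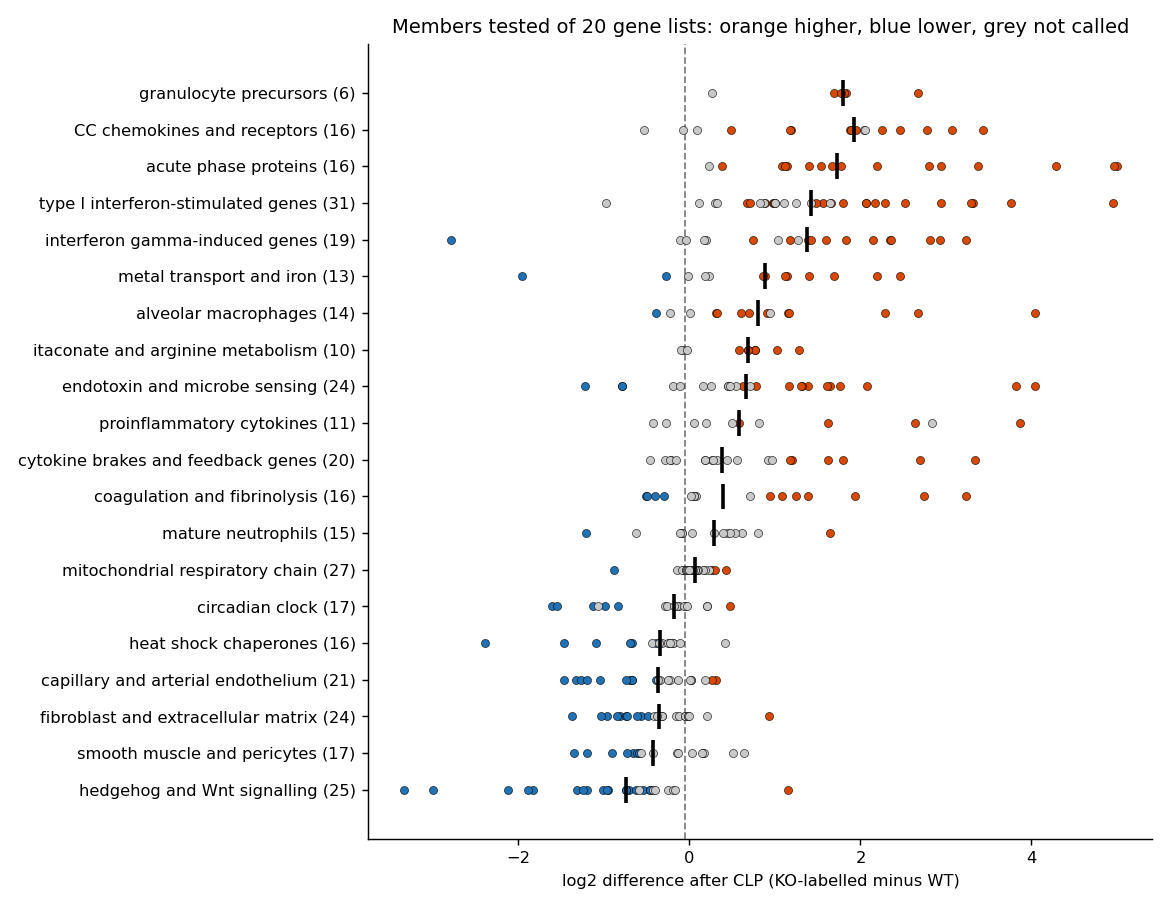
Log2 difference between genotypes after CLP (knockout-labelled minus wild type) for every tested member of 20 gene lists, with the number tested in brackets, the list median as a bar and the median of all genes dashed (-0.06). Acute-phase, CC chemokine and granulocyte precursor genes lie to the right (medians 1.72, 1.92 and 1.79), hedgehog and Wnt genes to the left (median -0.74), and mature neutrophil and respiratory chain genes around 0. Members weak in 1 genotype could pass the filter through the other alone, which favours large differences.

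Among the lists with falls, hedgehog and Wnt signalling had the most called members. These pathways carry signals between lung epithelium and mesenchyme in development and repair. Of 25 tested members, 18 were lower and 1 higher, with a median of -0.74. The number lower was 8 without wild-type CLP array 1 or 2 and 10 without array 3. Over all probe sets tested, those called lower also fell, from 3778 to 1977, 1624 and 1949 without wild-type CLP array 1, 2 or 3. Single genes are therefore given here that kept their call without each array. Gli2, the transcription factor at the end of the hedgehog pathway, was at 54.5, 53.1 and 67.5 in wild-type CLP and 1.73, 5.63 and 1.29 in knockout-labelled CLP (-3.34 ± 0.34, adjusted p = 5.00e-04). Gli2 passed the filter only through wild-type CLP arrays. Sham lungs of Gli2 had 56.0, 80.4 and 84.9 against 37.6, 58.7 and 36.5, and the difference between surgeries was -2.63 (adjusted p = 0.0108), called without any of the 12 arrays.

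Smo, the signal transducer of hedgehog, gave 226, 237 and 213 against 116, 82.4 and 71.2 (-1.32 ± 0.18, adjusted p = 0.0019). Gas1, a hedgehog co-receptor, had 430, 491 and 568 against 197, 114 and 60.6 (-2.12 ± 0.35, adjusted p = 0.00411). Neither was called after sham (-0.27 and -0.14). Of the Wnt genes, Wnt2, a ligand made by lung mesenchyme, had 223, 197 and 178 against 72.9, 56.8 and 35.9 (-1.83 ± 0.24, adjusted p = 0.00148). Fzd1, a Wnt receptor, had 775, 712 and 655 against 342, 332 and 382 (-1.01 ± 0.11, adjusted p = 6.97e-04), with sham arrays of both genotypes between 520 and 673. The difference between surgeries of Fzd1 was -1.05 (adjusted p = 0.0103), called without any of the 12 arrays. Sfrp2, a secreted Wnt modulator, was at 119, 100 and 104 against 10.9, 9.42 and 10.9 (-3.003 on the log2 scale, adjusted p = 6.37e-05), and it was lower after sham as well (-1.93, adjusted p = 0.00363). The rise was Wif1, a secreted Wnt inhibitor (1.16), which also stood higher in 3 of 3 knockout-labelled sham lungs (1009, 998 and 254 against 152, 154 and 196).

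**Figure D5:**
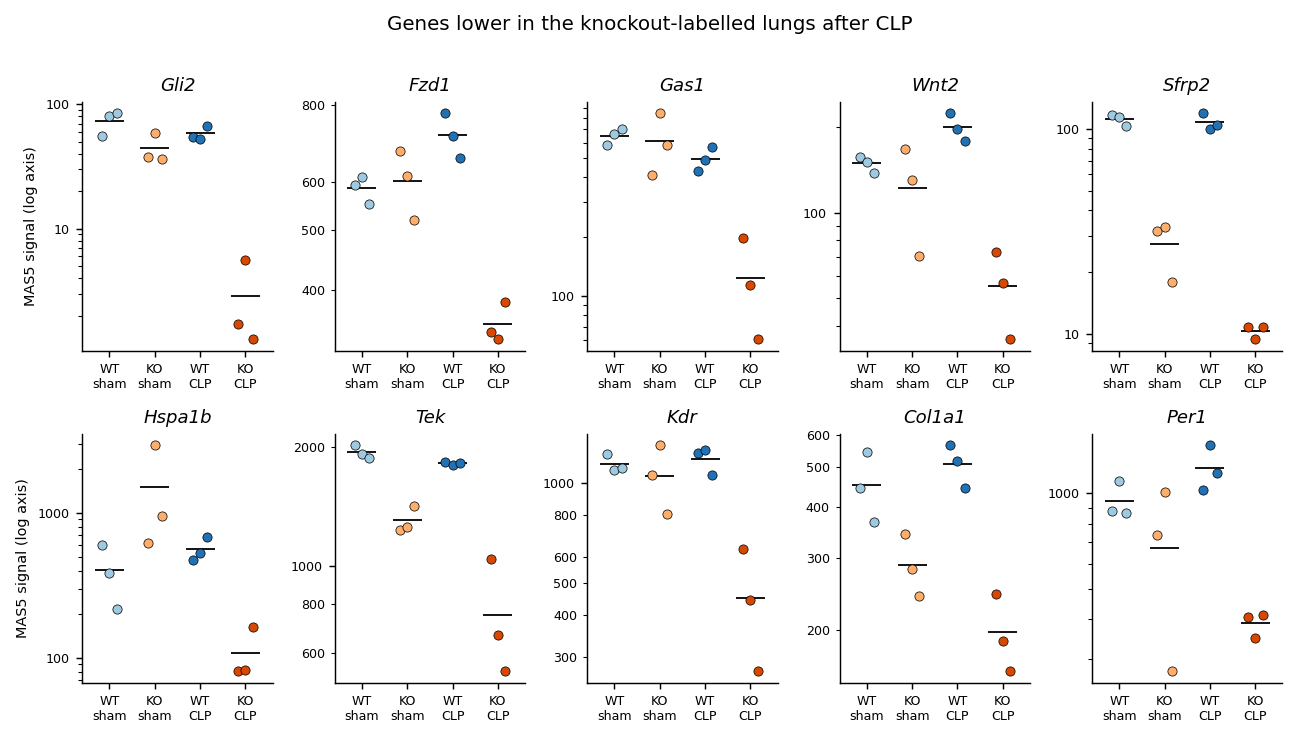
MAS5 signal on a log axis for 10 genes lower in knockout-labelled lungs after CLP, on all 12 arrays with a line at each group mean. In each gene the 3 knockout-labelled CLP arrays lie below the 3 wild-type CLP arrays, the sham arrays of Sfrp2, Tek and Col1a1 are separated too, and Hspa1b has its highest values in knockout-labelled sham lungs.

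Endothelial receptors were lower without a fall of all endothelial genes. Tek, the angiopoietin receptor that keeps vessels sealed, was at 1829, 1804 and 1827 in wild-type CLP and 1041, 668 and 539 in knockout-labelled CLP (-1.33 ± 0.21, adjusted p = 0.00297), and was lower after sham too (-0.57, adjusted p = 0.00763). Kdr, the main receptor of VEGF, had 1230, 1256 and 1055 against 635, 444 and 272 (-1.46 ± 0.26, adjusted p = 0.00548), with no call after sham (-0.15). Nrp1, its co-receptor, had 2883, 3132 and 2982 against 1684, 1270 and 982 (-1.23 ± 0.17, adjusted p = 0.00189), with 2 of its 3 other probe sets lower. Notch4, an endothelial Notch receptor, was lower by 1.22 after CLP and by 1.01 after sham. The Notch ligand Jag1 went up (0.91 ± 0.11, adjusted p = 9.76e-04). Of 21 endothelial markers tested, 10 were lower and 2 higher. Without wild-type CLP array 1 or 2 there were 6 lower, without array 3 there were 5, and none was higher without any 1 of these or without knockout-labelled CLP array 2. Their summed signal was 40166 to 42047 in wild-type CLP and 29487 to 36304 in knockout-labelled CLP, and sham lungs of that genotype had 32983 to 39674.

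Matrix and contractile genes lay lower in part. Col1a1, the chain of type I collagen, had 565, 518 and 444 against 245, 188 and 158 (-1.37 ± 0.17, adjusted p = 0.00133), and Col3a1 4320, 4570 and 4401 against 2974, 2010 and 1972 (-0.96 ± 0.15, adjusted p = 0.00279). Of 24 fibroblast and matrix genes tested, 11 were lower and 1 higher (median -0.36). The higher one, Lox, cross-links collagen (652, 752 and 847 against 1393, 1176 and 1780, 0.93 ± 0.16, adjusted p = 0.00454). Of 17 smooth muscle and pericyte genes tested, 7 were lower and none higher (4 lower without wild-type CLP array 1 or 2), among them Mylk, the kinase that triggers contraction (-0.66 ± 0.08, adjusted p = 0.0012, with 1 of its 2 other probe sets lower). Summed signals of fibroblast markers were 43503 to 44398 in wild-type CLP and 28571 to 36255 in knockout-labelled CLP. Each array was scaled to the same trimmed mean signal (150.001), so all levels are relative to the other transcripts of that array.

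Some heat shock chaperones were lower in knockout-labelled CLP. Hspa1b, an inducible Hsp70, was at 472, 530 and 681 in wild-type CLP and 80.6, 82.9 and 163 in knockout-labelled CLP (-2.39 ± 0.27, adjusted p = 7.81e-04). In sham lungs it was 598, 387 and 219 against 619, 2921 and 954, higher without a call (1.69, adjusted p = 0.13), and the difference between surgeries was -4.08 (adjusted p = 0.0143), called without any of the 12 arrays. Its copy Hspa1a, whose probes may share transcripts, gave 107, 125 and 115 against 35.4, 33.9 and 51.5 (-1.47 ± 0.19, adjusted p = 0.0015). Of 16 chaperones tested, 6 were lower and none higher (3 lower without wild-type CLP array 2). Per1, a clock gene induced by glucocorticoids, had 1028, 1417 and 1163 against 406, 349 and 412 (-1.61 ± 0.14, adjusted p = 2.23e-04), and Klf4, a shear-responsive transcription factor, 4006, 4083 and 4299 against 1517, 1967 and 1783 (-1.24 ± 0.10, adjusted p = 1.69e-04). Cftr, the chloride channel of lung fluid, fell from 192, 175 and 177 to 83.1, 90.1 and 81.9 (-1.06 ± 0.13, adjusted p = 9.87e-04).

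Of 11 tested members of the tachykinin and CGRP system, 3 were higher (Tac1, Adm and Ramp3), 4 lower (Ace, Calcrl, Calcb and Ramp2) and 4 not called. Without wild-type CLP array 1 or 2 or knockout-labelled CLP array 2, 2 were higher and 2 lower, and 2 were lower without knockout-labelled CLP array 3. The receptors Tacr1 and Tacr2 were not tested, with signals of at most 4.71 and 27.1 on the 6 CLP arrays. Of the peptidases that cut substance P, Ace was lower, at 1138, 1316 and 1275 against 567, 514 and 442 (-1.29 ± 0.12, adjusted p = 3.00e-04), and neprilysin, Mme, was not called (1414, 1257 and 1219 against 1277, 1007 and 800, -0.36, adjusted p = 0.127). Nor were Dpp4 (-0.22, adjusted p = 0.246) and Ece1 (-0.26, adjusted p = 0.242). Calcrl, the receptor shared by CGRP and adrenomedullin and abundant in lung capillaries, had 3894, 3894 and 3680 against 2373, 1211 and 1397 (-1.26 ± 0.21, adjusted p = 0.00426). Of its partners, which set its ligand preference, Ramp1 was not called (0.01, adjusted p = 0.971).

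Ramp2 was lower, at 2189, 2542 and 2670 against 2173, 1174 and 1228 (-0.75 ± 0.22, adjusted p = 0.0336), with knockout-labelled array 1 just under the lowest wild-type array. Its call was kept only without knockout-labelled CLP array 1 (adjusted p up to 0.114 without another). Ramp3 was higher, at 222, 253 and 248 against 325, 754 and 723 (1.21 ± 0.29, adjusted p = 0.017), and its call was lost without wild-type CLP array 1, 2 or 3 or knockout-labelled CLP array 2 (adjusted p up to 0.0617). Adm, adrenomedullin, a ligand of these receptors, had 154, 131 and 156 against 244, 549 and 393 (1.33 ± 0.26, adjusted p = 0.0076), and was called in each leave-out but not in the fit of all 12 arrays (adjusted p = 0.0576). Calcb, a CGRP peptide gene, had 107, 81.0 and 63.2 against 55.7, 41.9 and 38.5 (-0.82 ± 0.23, adjusted p = 0.0302), and its call was lost without wild-type CLP array 1 or 2 or knockout-labelled CLP array 2 or 3 (adjusted p up to 0.114).

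Genes beside Tac1 on chromosome 6 were higher where they were called. Of the 10 named genes on either side, 14 were measured, and 5 were higher and none lower. Over all genes tested, 30.6% were called, 13.2% higher and 17.4% lower. Whether the neighbours differ from other genes was not tested. Nearest to Tac1, Asns, the asparagine synthetase, had 260, 272 and 290 in wild-type CLP and 468, 454 and 522 in knockout-labelled CLP (0.80 ± 0.11, adjusted p = 0.00178). Slc25a13, the mitochondrial aspartate and glutamate carrier, had 46.5, 52.4 and 46.6 against 89.8, 89.4 and 99.0 (0.89 ± 0.15, adjusted p = 0.00425). Pdk4, the kinase that shuts off pyruvate oxidation, had 218, 305 and 312 against 530, 424 and 598 (0.89 ± 0.18, adjusted p = 0.00862). None of the 3 was called after sham (0.38, 0.54 and 0.14). Nor was any called in the test of the difference between surgeries (adjusted p = 0.109, 0.417 and 0.222). Mios and C1galt1 were also higher (0.68 and 0.48), Mios without a call when wild-type CLP array 2 was left out, and C1galt1 when any wild-type CLP array or knockout-labelled CLP array 2 was left out.

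Of 16 tested heart muscle genes, 4 were higher and 1, the myosin gene Myh7, lower after CLP, with a median of 0.50. Without knockout-labelled CLP array 1 the higher count was 9, without wild-type CLP array 1 or knockout-labelled CLP array 2 it was 2, and without wild-type CLP array 2 Myh7 was not called. After sham 13 were called, with a median of 1.40, and the difference of the list between surgeries was not tested. Actc1, cardiac alpha-actin, had 450, 438 and 486 in wild-type CLP and 1062, 1350 and 1688 in knockout-labelled CLP (1.55 ± 0.16, adjusted p = 5.29e-04), and 465, 523 and 459 against 2813, 3675 and 2342 after sham (2.58). The summed signal of cardiac markers was 4570 to 5450 in wild-type CLP, 5410 to 9612 in knockout-labelled CLP, and reached 12020 to 19083 in sham lungs of the latter genotype. Mouse lung carries heart muscle in the walls of its pulmonary veins. Genes of the respiratory chain, 27 tested, had a median of 0.06, with 3 higher and 1 lower (1 higher without any 1 of the arrays but knockout-labelled CLP array 3).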

How the data were processed

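The 12 arrays were grouped by their labels, and only the 6 arrays after CLP entered the comparison. The authors deposited 1 linear signal intensity for each probe set and array, made with GCOS, MAS5 and the Affymetrix Expression Console per the submitters' processing notes, which give no roles. Control probe sets were left out. Values were used as log2(signal + 3.47), the pseudocount being 10% of the median of the array medians (34.7). Probe sets above their array's median on at least 3 of the 6 arrays were compared by limma 3.58.1 under R 4.3.3 (lmFit, eBayes with trend, two-sided), adjusted by Benjamini-Hochberg over all tested and called under 0.05. The difference between surgeries was an interaction contrast over 12 arrays. Genes were named from the platform table where a probe set had 1 symbol, and represented by the probe set of highest mean signal. The genes of the text come from the 15 largest rises and falls, the 6 largest differences between surgeries each way, called list members of smallest p, members against their list, and some without a call, and not all of these are named. Members and lists were chosen with earlier results of these data known. On simulated arrays of this comparison, 100 of 23187 probe sets were changed by 1 log2 unit and 100 by 2, and 51% and 88% of them were recovered. Far fewer probe sets were changed there than were called in the data (6764), so these shares do not give the sensitivity of the comparison. With no detection calls in the values, the number of arrays limits the precision. No pairing was used, because the labels do not say that replicate numbers pair the arrays. Deviations of same-numbered arrays from their group means had correlations of -0.115, -0.118 and -0.0624. With 3 arrays in each group such deviations are bound to each other and cannot settle whether arrays are paired.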

Additional observations from a re-analysis of the deposited data

Results flagged for a closer look

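These results differed between surgeries by the interaction test: 995 probe sets and, by the rule for naming genes or because the call held in at least 11 of 12 runs that each left out 1 array, 21 genes. Above 0 (knockout-labelled minus wild type, after CLP minus after sham, log2) and called in all 12 such runs were Orm1 (4.65), Msr1 (3.58), Camp (3.40), Ccl17 (2.88), Timp1 (2.67) and Ngp (2.48). Saa3 (3.41), Plat (2.22), the gene of tissue plasminogen activator, and Sod2 (1.73) lost the call only without wild-type CLP array 2. Below 0 and called in all 12 were Hspa1b (-4.08), Gli2 (-2.63), Cass4 (-2.61), an adaptor of focal adhesions, and Fzd1 (-1.05), and H2-Ob (-1.72), a class II chaperone of B cells, lost it only without wild-type CLP array 2. Called in fewer runs were Tmem45a2 (4, 5 of 12), Il6 (3.99, 3 of 12), Adamts4 (3.52, 2 of 12), Saa1 (3.50, 6 of 12), Wnt3a (-3.62, 5 of 12), Hspa1a (-2.66, 5 of 12) and Lbh (-2.58, 5 of 12).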

How the results depend on the processing

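Of 143 genes called after CLP and followed singly, 130 kept their call and direction in every alternative of scaling, pseudocount, filter and model in which they were tested (10 to 12 each), and 127 did so without each array in turn; none of the 143 reversed. Among genes without a call the sign turned for Ramp1 (-0.0951 to 0.221) and Il1b (-0.0399 to 0.524) when single arrays were left out, and for S100a9 (0.0157) with quantile normalisation, under which S100a8 differed by 0. Without 1 array, 3171 to 8243 probe sets were called after CLP (1547 to 3443 higher, 1624 to 4800 lower), 1645 to 4409 genes, 107 to 3284 probe sets for the difference between surgeries and 526 to 3704 after sham. Array weights gave 5812 lower probe sets, 5834 for the difference between surgeries and 3581 after sham, and no filter gave 557 for the difference between surgeries. The median difference of all probe sets, -0.0501, was -0.00144 with median centring and -0.0272 with quantile normalisation. A block for the replicate number left 5231 probe sets called after CLP and 886 for the difference between surgeries; the block ended the call of 3 of the 143 genes after CLP. The causes of these changes were not tested. Alternatives for sham counts, list counts and single genes' differences between surgeries were chosen after seeing the data.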

Other observations

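Fat and epithelial genes not described above differed in places. Adipoq, the hormone adiponectin of fat cells, was at 153, 113 and 113 in wild-type CLP and 22.4, 14.0 and 31.2 in knockout-labelled CLP (-2.36 ± 0.27, adjusted p = 8.44e-04), with 118, 114 and 151 against 56.0, 72.8 and 88.7 after sham. Fabp1, a fatty acid carrier, had 158, 125 and 147 against 665, 445 and 314 (1.65 ± 0.25, adjusted p = 0.00265) and was also higher after sham (1.51, adjusted p = 0.0171). Mcm6, a part of the replicative helicase, had 97.9, 80.9 and 88.4 against 263, 292 and 314 (1.66 ± 0.13, adjusted p = 1.84e-04) and was higher by 1.79 after sham. Lrat, which stores retinol as its ester, fell from 294, 252 and 388 to 26.1, 27.9 and 32.5 (-3.27 ± 0.19, adjusted p = 4.14e-05). In sham lungs Lrat was at 463 and 372 on knockout-labelled arrays 1 and 2 and at 34.1 on array 3, the level seen after CLP. The same array had Nr1d1, a repressor of the clock, at 110 against 1139 and 1081 on the other sham arrays of its genotype, and in knockout-labelled CLP lungs Nr1d1 was at 302, 226 and 116 against 631, 684 and 482.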
